A study of Mus musculus with 12 samples.

Results

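Fos, Jun, Myc, Max and Ddit3 are the 5 genes of early response and stress transcription factors described here, chosen by symbol from the 248 inflammation-related genes measured by the nanostring approach in monocytes and Kupffer cells of the mouse. In this assay each mRNA is bound by a pair of probes, of which the reporter carries a colour code, and the codes are counted without amplification. The monocyte group (MNCs) comprised 6 samples from the blood of Balb/C mice, and the Kupffer cell group (KCs), the resident macrophages of the liver, comprised 6 samples from the same strain. No treatment is named for either group. Each sample was a pool of sorted cells, from 5 mice by its label, while a range of 4 to 5 mice stands in the description of the method, and 100 ng of total RNA entered each reaction. Sex and age of the animals are not given in the labels. Cells of both groups were caught with an antibody on beads that recognises F4/80, an adhesion receptor carried by mouse macrophages. Before that step the livers were perfused, minced, digested with collagenases in the warm and spun on a density gradient, whereas blood was separated on a Ficoll gradient with no digestion. Cell type and isolation procedure therefore cannot be told apart in any comparison below.

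Fos and Jun encode leucine zipper proteins that pair to form the transcription factor AP-1. Their mRNAs are made within minutes of a stimulus through the MAP kinase cascade and are rapidly degraded, which is why they are called immediate early genes. Myc encodes a growth-promoting factor that binds DNA only when paired with Max, a partner that is made steadily and also serves the antagonists of Myc. Ddit3 encodes CHOP, a leucine zipper factor of the C/EBP family that rises when unfolded proteins gather in the endoplasmic reticulum. In macrophages AP-1 and Myc take part in responses to microbes, growth factors and adhesion.

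The genes lie at chr12:85473890-85477274 (Fos), chr4:95049036-95052222 (Jun), chr15:61985341-61990361 (Myc), chr12:76937269-76962323 (Max) and chr10:127290793-127296291 (Ddit3) of GRCm38.p6, all protein coding. RefSeq promoter sequence was matched for 4 of the 5 genes, namely Fos, Jun, Max and Ddit3. The 250 bases before each start were searched on both strands for 7 motifs. These were the AP-1 element TGANTCA, the site TGACATCA known from the Jun promoter, the core TGACGT of the cAMP response element, the E-box CACGTG bound by Myc with Max, the TATA box in the form TATAAA, the box CCAAT bound by the factor NF-Y, and the site TGATGCAA of C/EBP and ATF dimers. Stretches of the promoters of Fos, Jun and Ddit3 are printed because these 3 genes separated the cell types without overlap and their elements differ. They are written 5′ to 3′ on the strand of the gene, with the matches in capitals: Fos from chr12:85473790-85473889 on the plus strand, Jun from chr4:95052223-95052322 on the minus strand and Ddit3 from chr10:127290543-127290592 on the plus strand.
Fos: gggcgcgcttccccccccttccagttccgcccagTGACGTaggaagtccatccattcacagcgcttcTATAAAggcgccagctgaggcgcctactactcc
Jun: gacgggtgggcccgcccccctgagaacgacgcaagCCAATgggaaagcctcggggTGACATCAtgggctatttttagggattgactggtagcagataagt
Ddit3: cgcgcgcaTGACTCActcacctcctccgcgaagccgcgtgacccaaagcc

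The Fos promoter held TGACGT at -66 to -61 and TATAAA at -33 to -28, counted back from the start. That of Jun held TGACATCA at -45 to -38 and CCAAT at -65 to -61. That of Ddit3 held TGACTCA at -242 to -236 and, outside the printed stretch, CCAAT on the opposite strand at -77 to -73. No match was found in the 250 bases before Max. Over 32851 mouse promoters of the same length, 6.47% held TGACGT, 2.93% TGACATCA, 6.75% TGANTCA, 12.4% TATAAA, 33.8% CCAAT, 6.02% CACGTG and 0.791% TGATGCAA. None of the matches overlapped another motif, and a match describes letters only.

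The 5 genes were above the background of the assay in all 12 samples, as were 160 of the 248 genes. Kupffer cell samples held 80944 to 140029 counted molecules each and monocyte samples 158730 to 339100. The deposited counts had been multiplied by 1 factor per sample, which lay between 1.30 and 2.17 for Kupffer cells and between 0.554 and 1.13 for monocytes. Among the housekeeping genes behind that factor, Gusb was lower in Kupffer cells by 1.53 on the log2 scale, while Cltc, Gapdh and Pgk1 were higher by 0.31, 0.75 and 0.91. Kupffer cell samples 1 and 6 stood apart in Gapdh, with 4159 and 4084 normalized counts against 2159 to 2741 in the other 4. Of the whole panel, 21.4% was called lower in Kupffer cells and 35.1% higher. Of the macrophage markers listed, 8 were measured, with 6 called lower and 1, Cd163, higher (log2 fold change 1.11, adjusted p = 0.00691 by limma, overlapping groups). Their summed count lay between 11350 and 19441 in monocytes but between 3523 and 7031 in Kupffer cells. In monocytes Itgb2, C1qb and C1qa had the largest means, at 5684, 3654 and 3064, so the sum there rests most on them. Mrc1, a macrophage gene outside the list, was called higher in Kupffer cells (log2 fold change 0.68, adjusted p = 0.0403 by limma), with overlapping groups. By flow cytometry the paper reported more pronounced Cd68, Cd163, Cd86 and Mrc1 protein in Kupffer cells. The mRNA of Cd86, 1 of the 6 markers called lower, went the other way (log2 fold change -1.12, adjusted p = 0.000171 by limma, groups apart). For protein the paper also reported less CD11b and Ly6C, and no difference in the sorting antigen. Clec4f, Vsig4 and Timd4, which mark Kupffer cells, were not among the genes analysed here, nor were the macrophage genes Marco and Adgre1. The Kupffer cell label could therefore not be checked on these genes. The 11 hepatocyte genes summed to 0 to 28.1 in monocytes, with 8 of them at the background in all 6 samples. They summed to 4924 to 16830 in Kupffer cells, where all 11 were called higher, beside 35.1% of the panel. These marker sums move with the cell type, as do the results below, and their part in those results was not tested.

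Fos, the AP-1 subunit that cannot pair with itself, was 3.90-fold higher in Kupffer cells. Its normalized count in monocytes was 2969 at the lowest, 3513 at the median and 5601 at the highest. In Kupffer cells it was 9835, 15038 and 19044. The lowest Kupffer cell sample thus stood well above the highest monocyte sample, and the groups did not overlap. The means were 3804 ± 950 and 14818 ± 3283 (SD, n = 6 samples each), with a log2 fold change of 1.96 (95% interval 1.55 to 2.38, adjusted p = 1.07e-06 by limma over 248 genes). As a share of all counts on the panel, which the factor of the sample does not touch, Fos took 1.69% to 2.99% in monocytes (mean 2.08% ± 0.475), whereas it took 5.51% to 9.20% in Kupffer cells (mean 7.47% ± 1.21). In pools of cells such as these, a higher count from more RNA per cell and one from a larger fraction of expressing cells cannot be told apart.

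Jun, the partner of Fos, which can also pair with itself, differed in the same direction and by more, 4.96-fold. Monocytes had 786 normalized counts at the lowest, 934 at the median and 1755 at the highest, and Kupffer cells 3268, 5148 and 6445. The groups did not overlap, although monocyte sample 4 lay apart from its group at 1755, with 963 the next highest. The log2 fold change was 2.31 (95% interval 1.83 to 2.79, adjusted p = 8.75e-07). In shares of the panel, Jun took 0.443% to 0.937% in monocytes, against 1.83% to 3.11% in Kupffer cells. Leaving out each sample in turn gave log2 fold changes of 1.88 to 2.08 for Fos and 2.24 to 2.47 for Jun.

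Myc, the growth regulator, had the opposite sign but did not pass the test. Monocytes had 889 normalized counts at the lowest, 1022 at the median and 1199 at the highest, against 561, 750 and 1095 in Kupffer cells. Kupffer cell samples 3 and 5, at 1095 and 985, lay within the range of the monocytes, and the other 4 lay below it. The means were 1033 ± 120 and 795 ± 214 (SD, n = 6 each), a log2 difference of -0.41 (95% interval -0.79 to -0.03, adjusted p = 0.0607 by limma). The difference passed when either of these samples was left out (-0.51, adjusted p = 0.0199 without Kupffer cell sample 3, and -0.48, adjusted p = 0.0377 without Kupffer cell sample 5).

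Max, the obligate partner of Myc, was 1.45-fold higher in Kupffer cells with overlapping groups. Its normalized count was 203, 275 and 306 in monocytes (lowest, median, highest) and 244, 375 and 531 in Kupffer cells. Kupffer cell sample 4, at 244, lay inside the monocyte range, and samples 1 and 6, at 510 and 531, were the highest of all 12. The log2 fold change was 0.54 (95% interval 0.13 to 0.94, adjusted p = 0.0265 by limma). Samples 1 and 6 are those with high Gapdh and also those with the lowest macrophage marker sums, 3523 and 3718, and the part of either in the level of Max was not tested. Without both samples the log2 fold change of Max was 0.32 (adjusted p = 0.131). The call was also lost without monocyte sample 4 (adjusted p = 0.0523), monocyte sample 6 (0.0610), Kupffer cell sample 1 (0.0580) or Kupffer cell sample 6 (0.0609).

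Ddit3, the stress factor CHOP, was 1.51-fold higher in Kupffer cells, with the narrowest spread of the 5 genes. Monocytes had 182 normalized counts at the lowest, 199 at the median and 229 at the highest. Kupffer cells had 274, 314 and 319. On the deposited scale the groups did not overlap, with means of 203 ± 18.0 and 307 ± 17.0 (SD, n = 6 each). The log2 fold change was 0.59 (95% interval 0.36 to 0.83, adjusted p = 0.000326 by limma). In counted molecules, before any factor, Ddit3 gave 203 to 374 in a monocyte sample, against 140 to 243 in a Kupffer cell sample, so that before the factor the ranges overlapped and Kupffer cells had the lower end.

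**Figure D1:**
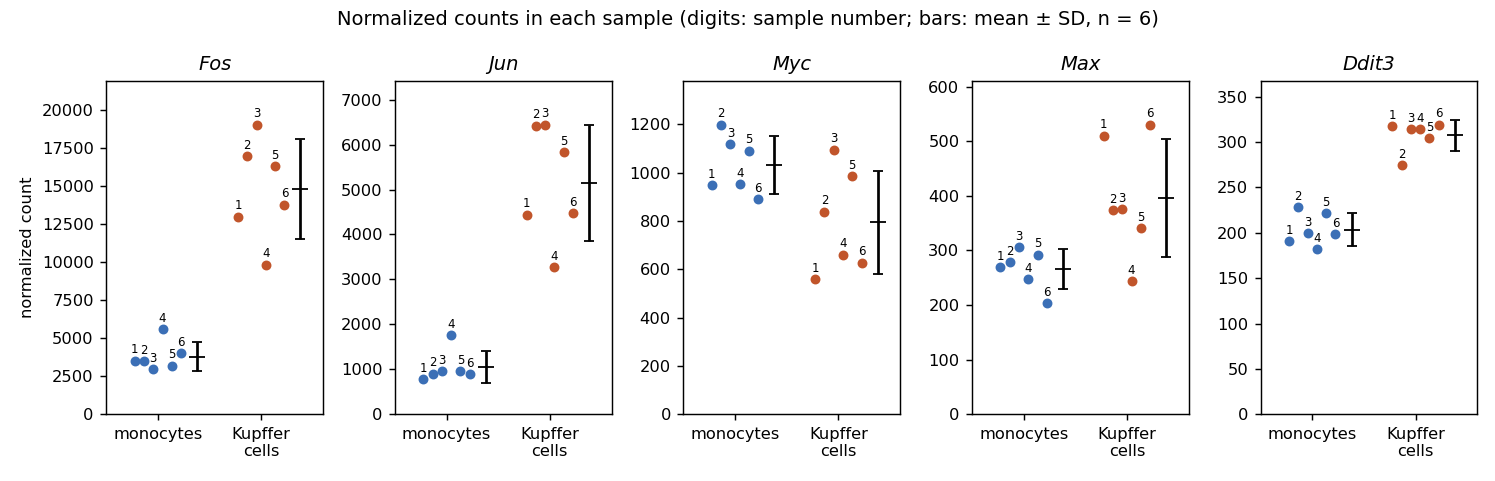
Normalized counts of Fos, Jun, Myc, Max and Ddit3 (vertical axes from 0, a scale for each gene) in the 6 monocyte and 6 Kupffer cell samples, with each point labelled by its sample number and bars giving the mean ± SD. The groups are apart for Fos, Jun and Ddit3 and overlap for Myc and Max, and the directions of Max and Ddit3 turn under 2 of 6 scalings between samples (without Gusb, and by positive controls only).

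Of the 5 genes, 4 were called higher in Kupffer cells (Fos, Jun, Max and Ddit3) and 0 lower by limma (1, Myc, at an unadjusted p of 0.0357), on a panel where 56.5% of genes were called, 35.1% as higher. The groups did not overlap for 3 of the 5, all higher, against 41.5% of the panel in either direction and 25.8% as higher. The median log2 fold change of the 5 was 0.59, that of all 248 genes 0.05, and that of the 160 genes above the background in all samples 0.13.

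How far each gene differed depended on how the samples were scaled, and the 5 genes fell into 3 kinds. Fos and Jun were called higher in Kupffer cells under all 6 scalings. These were as deposited, centred on the median gene, by quantiles, by housekeeping genes without Gapdh or without Gusb, and by the positive control probes alone. Without Gapdh means scaled by Cltc, Gusb and Pgk1, and without Gusb by Cltc, Gapdh and Pgk1. Neither used Hprt and Tubb5, so each differs from the authors' factor by more than the gene it is named for. The log2 fold change of Fos was 1.78 with centring, 1.92 with quantiles, 2.07 without Gapdh, 1.31 without Gusb and 0.57 with positive controls only (adjusted p = 0.0488). That of Jun was 2.12, 2.35, 2.41, 1.65 and 0.92 (adjusted p = 0.00684) in the same order. With positive controls only, the scaled count of Fos was 3786 to 10468 in monocytes, against 5182 to 9653 in Kupffer cells, so that the groups overlapped on that scale. Jun overlapped there too, at 984 to 3281 in monocytes, against 1722 to 3582 in Kupffer cells.

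Myc had a lower mean in Kupffer cells under all 6 scalings and passed the test as lower under 4 of them. Its log2 fold change was -0.60 with centring (adjusted p = 0.00729), -0.51 with quantiles (0.0185), -1.07 without Gusb (0.0016) and -1.80 with positive controls only (2.28e-07). Without Gapdh it was -0.31 (adjusted p = 0.156).

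Max and Ddit3 had no settled direction. Max was at 0.35 with centring (adjusted p = 0.168), 0.10 with quantiles (0.740), 0.64 without Gapdh (0.0170), -0.12 without Gusb (0.595) and -0.85 with positive controls only (0.00414). Ddit3 was at 0.41 (adjusted p = 0.0192), 0.17 (0.170), 0.70 (0.000169), -0.06 (0.739) and -0.79 (0.000932) in the same order. With positive controls only, the scaled count of Ddit3 was 246 to 340 in monocytes, against 146 to 236 in Kupffer cells. The groups were thus apart on that scale too, in the opposite direction. The panel as a whole moved with the scaling, and the median log2 fold change of genes above the background was -0.06, -0.19, 0.23, -0.52 and -1.25 under these scalings. Of the whole panel, 28.2% was called higher and 39.5% lower with centring, 25.4% and 27.8% with quantiles, 35.9% and 18.5% without Gapdh, 15.3% and 54.4% without Gusb, and 10.9% and 64.1% with positive controls only. Of the 5 genes, 3 were called higher and 1 lower with centring, 2 and 1 with quantiles, 4 and 0 without Gapdh, 2 and 1 without Gusb, and 2 and 3 with positive controls only.

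**Figure D2:**
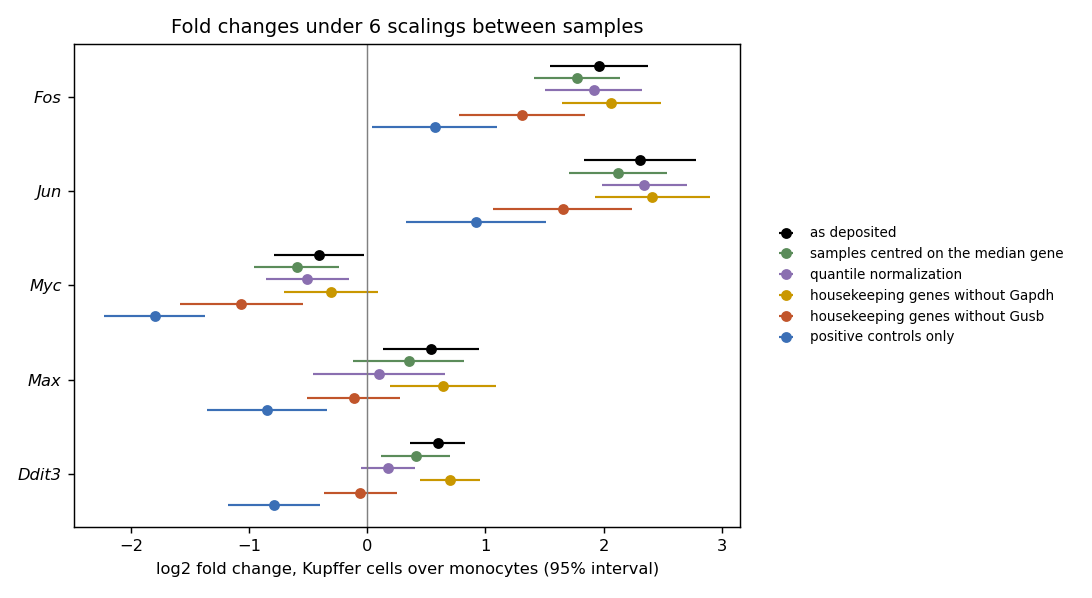
Log2 fold changes of Kupffer cells over monocytes (horizontal axis, points) with 95% intervals (lines) for the 5 genes under 6 scalings between samples. Fos and Jun stay right of 0 and Myc left of 0 in the point estimates under all 6, whereas Max and Ddit3 cross to the left without Gusb and with positive controls only.

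The ratio of 2 genes in the same sample is free of the factor of that sample, so the 10 ratios among the 5 genes were compared between the cell types. The probes of different genes catch their targets unequally, so a ratio is read only between cell types and not as an order of abundance. Of the 10 ratios, 9 separated all Kupffer cell samples from all monocyte samples, where 51.7% of the 12720 pairs of panel genes above the background did the same. Each of the 9 had p = 0.00216 in an exact two-sided permutation test, the smallest that 6 against 6 allows, and 0.0024 after adjustment over the 10.

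Myc shifted furthest against the AP-1 genes. Fos over Myc was 2.66 at the lowest, 3.34 at the median and 5.87 at the highest in monocytes, and 14.9, 18.8 and 23.2 in Kupffer cells, a shift of 2.38 on the log2 scale. Jun over Myc was 0.755, 0.872 and 1.84 in monocytes and 4.95, 6.52 and 7.92 in Kupffer cells, a shift of 2.72. Even the lowest Kupffer cell sample lay more than the whole monocyte range away.

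Myc also fell against its partner and against Ddit3. Myc over Max was 3.51 to 4.38 in monocytes (median 3.79), against 1.10 to 2.91 in Kupffer cells (median 2.47), a shift of -0.95. The Kupffer cell samples were uneven in this ratio, with 1.10 in sample 1 and 1.18 in sample 6 against 2.24 to 2.91 in the other 4. Myc over Ddit3 was 4.47 to 5.61 in monocytes, against 1.77 to 3.49 in Kupffer cells, a shift of -1.01. The fall of Myc relative to the 4 other genes therefore did not depend on the factor of each sample. Quantile normalization, which is not 1 factor per sample, was not applied to the ratios.

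Fos and Jun also shifted against Max and Ddit3, by less. Fos over Max moved by 1.43, Fos over Ddit3 by 1.37, Jun over Max by 1.77 and Jun over Ddit3 by 1.72 on the log2 scale. Between Fos and Jun themselves, the ratio was 3.09 to 4.50 in monocytes (median 3.59), against 2.64 to 3.08 in Kupffer cells (median 2.94), a shift of -0.35 with the groups only just apart. Max over Ddit3 was 1.02 to 1.53 in monocytes, against 0.777 to 1.66 in Kupffer cells, and the shift of -0.06 did not pass the test (exact permutation p = 0.777).

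**Figure D3:**
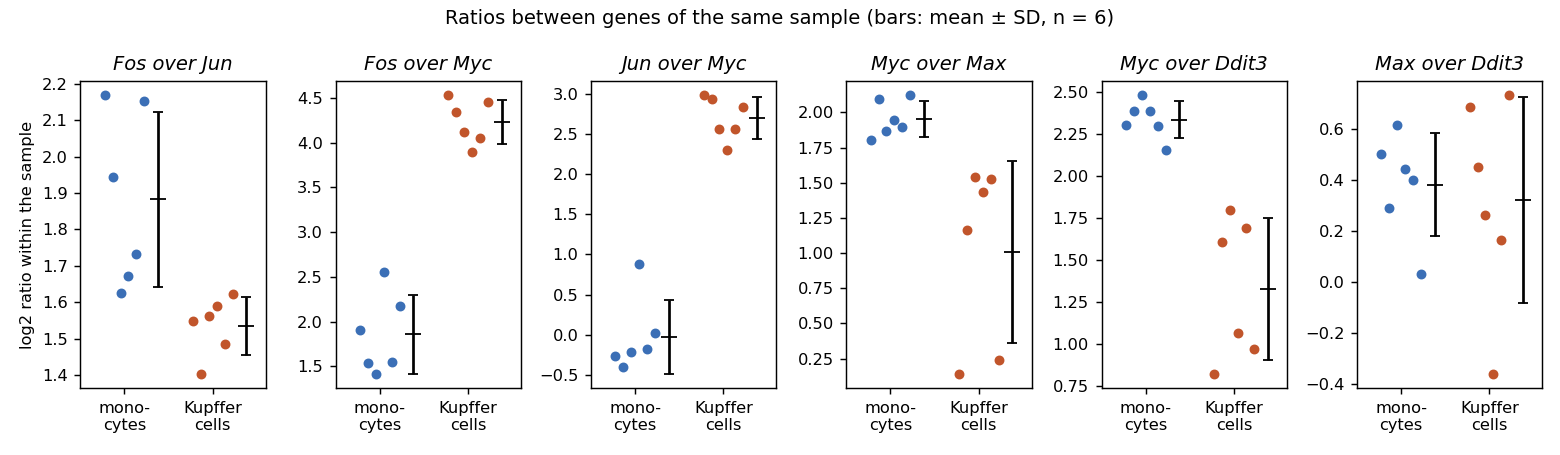
Log2 ratios of 6 pairs of genes within each sample (vertical axes, a scale for each pair) in 6 monocyte and 6 Kupffer cell samples, with bars for the mean ± SD. Fos and Jun rise against Myc by 2.38 and 2.72, Myc falls against Max and Ddit3, Fos over Jun is just apart, and Max over Ddit3 overlaps.

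Among Kupffer cell samples, Fos and Jun rose and fell together. Both were highest in sample 3 (19044 and 6445), followed by samples 2, 5, 6 and 1, and lowest in sample 4 (9835 and 3268). On the log2 scale Pearson's r was 0.98 (exact permutation p = 0.00139, 0.0278 after adjustment over the 20 relations of the 5 genes in both cell types). Spearman's rho was 1 (exact permutation p = 0.00278, the smallest that 6 samples allow, adjusted 0.0556). Without samples 3 and 4, those farthest from the median of Fos, r was 0.98. Centred on the median gene, r was 0.97 (adjusted p = 0.111), and leaving out each sample gave 0.958 to 0.992, where 5 samples cannot bring the adjusted p of a lone relation below 0.167. Of the 12720 pairs of panel genes above the background, 99.7% had a lower r in Kupffer cells. Among these samples the summed count of 15 T and NK cell genes nearly kept the order of Fos and Jun, at 8269 in sample 3, 7827 in sample 5, 7183 in sample 2, 5292 in sample 1, 5086 in sample 6 and 4829 in sample 4. The hepatocyte sum ran in another order, at 16830 in sample 2, 12811 in sample 5, 12782 in sample 4, 9093 in sample 3, 8252 in sample 6 and 4924 in sample 1. The part of either kind of RNA in the relation of Fos with Jun was not tested.

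In monocytes the same relation was not detected. Pearson's r was 0.80 (exact permutation p = 0.132, adjusted 0.440) and Spearman's rho -0.03. It rested on monocyte sample 4, which was highest in both genes (5601 and 1755), and without that sample r was -0.47. Without samples 3 and 4, r was -0.25. The difference between the 2 cell types in this relation was not tested.

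None of the other 18 relations passed. Fos with Myc had r = 0.77 in Kupffer cells (exact permutation p = 0.0694, adjusted 0.424) and -0.58 in monocytes (p = 0.232, adjusted 0.503). Jun with Myc had r = 0.77 (exact permutation p = 0.0847, adjusted 0.424) and -0.17 (p = 0.876). Myc with Max had r = 0.79 in monocytes (exact permutation p = 0.0472, adjusted 0.424) and -0.33 in Kupffer cells (p = 0.524). Of the 18, the relation of Myc with Max in monocytes was the only one with an unadjusted p of Pearson's r under 0.05. By Spearman's rho it was instead Fos with Max in monocytes, at -0.94 (exact permutation p = 0.0167, adjusted 0.167), with r = -0.61 (p = 0.210).

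**Figure D4:**
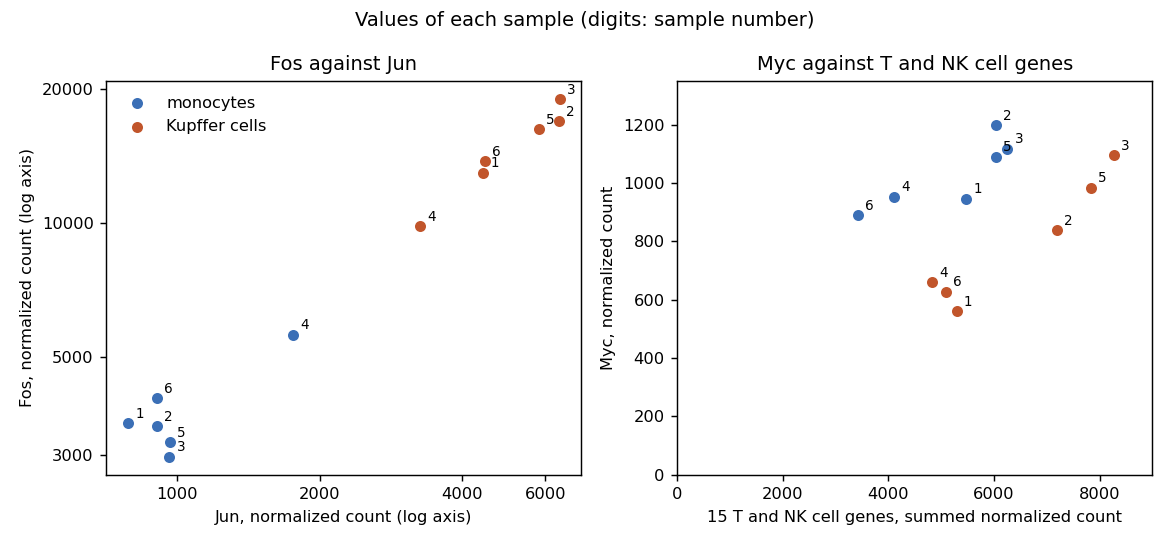
Left, Fos against Jun in normalized counts on log axes, and right, Myc against the summed normalized count of 15 T and NK cell genes on linear axes, with points labelled by sample number and coloured by cell type. Kupffer cell samples line up from sample 4 (9835 for Fos) to sample 3 (19044), and samples 2, 3 and 5 have the highest Myc in each cell type.

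The spread between samples was compared with the spread that counting alone would give at the number of molecules counted. Fos had an SD of 0.32 in monocytes and 0.34 in Kupffer cells on the log2 scale, where counting gives 0.02 in each. Jun had 0.41 and 0.39, where counting gives 0.04 and 0.03. Counting error therefore made up little of the spread of the AP-1 genes. Myc had SDs of 0.17 and 0.39 and Max of 0.21 and 0.41. The median SD of the 160 genes above the background was 0.22 in monocytes and 0.35 in Kupffer cells.

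Ddit3 was the exception. Its SD was 0.13 in monocytes and 0.08 in Kupffer cells, where counting alone gives 0.09 and 0.11. Only 1.25% of the 160 genes varied less between Kupffer cell samples. This narrow spread belongs to the deposited scale, on which sample 2, at 274, still lay apart from the other 5 Kupffer cell samples at 304 to 319. As a share of the panel, Ddit3 ran from 0.118% to 0.186% in Kupffer cells (mean 0.158% ± 0.0254) and from 0.0970% to 0.128% in monocytes (mean 0.112% ± 0.0110). In these shares the groups overlapped.

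The genes most like each of the 5 were taken as the 3 with the highest mean of r within monocytes and r within Kupffer cells, over 6 samples each. These values are descriptions, and genes of a sample share its factor. Of the 12720 pairs of panel genes above the background, 5% had r over 0.947 in monocytes and over 0.907 in Kupffer cells. For Fos they were Jun (mean r 0.89), Alox15 (0.89) and Alox5 (0.73), the last 2 being lipoxygenases that were lower in Kupffer cells by 5.00 and 2.51 on the log2 scale. For Jun they were Fos, the chemokine gene Ccl3 (0.78) and Alox15 (0.68). Alox15 thus varied with Fos from sample to sample inside each cell type (0.85 in monocytes and 0.92 in Kupffer cells), while between the cell types it differed in the opposite direction. Centred on the median gene, r of Alox15 in monocytes was 0.77 with Fos and 0.16 with Jun. In Kupffer cells it was 0.94 and 0.92.

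For Myc the most similar genes were Cd4 (mean r 0.94), the T cell co-receptor, Il18rap (0.94), a subunit of the interleukin 18 receptor, and Gnas (0.91), a G protein subunit. With Cd4, r was 0.90 in monocytes and 0.99 in Kupffer cells. Cd4 and Il18rap belong to a list of 15 T and NK cell genes on the panel, and the sum of that list was compared with Myc sample by sample. In Kupffer cells the sum was 8269, 7827 and 7183 in samples 3, 5 and 2, where Myc was 1095, 985 and 839. It was 5292, 5086 and 4829 in samples 1, 6 and 4, where Myc was 561, 628 and 661. In monocytes samples 3, 2 and 5 also had the highest sums, 6253, 6033 and 6028, and the highest Myc, 1118, 1199 and 1091. The sum ranged from 3424 to 6253 in monocytes, and from 4829 to 8269 in Kupffer cells. As deposited, 8 of the 15 genes were called higher in Kupffer cells and 0 lower, beside 35.1% and 21.4% of the panel. Without Gusb 2 were called higher and 2 lower, beside 15.3% and 54.4% of the panel. With positive controls only it was 1 higher and 5 lower, beside 10.9% and 64.1%. Ltb and Ccr7 had the largest means of the 15 genes, at 2147 and 2060 normalized counts in monocytes and 2685 and 1572 in Kupffer cells. The sum therefore rests most on these genes. It also includes Cd4 and Il18rap, named above for their likeness to Myc, so it is not independent of that choice. The part of T and NK cell RNA in the level of Myc was not tested.

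For Max the most similar genes were the chemokine gene Ccl5 (mean r 0.90), Mapk8 (0.89), which encodes the kinase JNK1 that phosphorylates Jun, and Gnb1 (0.87), a G protein subunit. For Ddit3 they were the interferon regulatory factor gene Irf1 (0.83), the prostaglandin receptor gene Ptger4 (0.71) and Tradd (0.69), an adaptor of the tumour necrosis factor receptor. On the deposited scale the spread of Ddit3 was close to counting error, so its likeness to other genes rests on small differences.

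Genes of the same pathways were described by lists. In the MAP kinase cascade, which leads to Fos and Jun, 8 of 19 measured genes were called higher in Kupffer cells and 0 lower as deposited. Of the panel, 35.1% and 21.4% were so called. The list gave 5 higher and 5 lower with centring (panel 28.2% and 39.5%). It gave 3 and 4 with quantiles (25.4% and 27.8%), and 9 and 0 without Gapdh (35.9% and 18.5%). Without Gusb 0 were higher and 11 lower, beside 15.3% and 54.4% of the panel. As deposited, limma gave 2 lower genes at an unadjusted p under 0.05, and the exact permutation test per gene called 9 higher and 3 lower after adjustment. With positive controls only, 17 of the 19 were called lower and 0 higher, beside 64.1% and 10.9% of the panel. At an unadjusted p under 0.05 limma there gave 18 and 0. Map2k6, a kinase upstream of p38, rose from 64.8 ± 12.03 to 137 ± 35.2 normalized counts (log2 fold change 1.05, adjusted p = 0.000338 by limma), and its sign turned only with positive controls alone (-0.33). Map3k7, the kinase TAK1, rose from 386 ± 41.2 to 693 ± 139 (0.83, adjusted p = 0.000319), and likewise turned only there (-0.56). The median log2 fold change of the list was 0.18.

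Of 13 other leucine zipper factors and factors that act at the Fos and Jun promoters, 4 were called higher and 2 lower as deposited, beside 35.1% and 21.4% of the panel, with a median log2 fold change of -0.17. The balance turned with the scaling, to 3 higher and 5 lower with centring (panel 28.2% and 39.5%). Quantiles gave 3 and 4 (25.4% and 27.8%). It was 2 and 8 without Gusb (15.3% and 54.4%), and 1 and 10 with positive controls only (10.9% and 64.1%). Mafg, a small Maf protein, rose from 75.8 ± 8.46 to 487 ± 300.2 normalized counts (2.49, adjusted p = 6.37e-06), and Nfe2l2, the antioxidant response factor NRF2, from 315 ± 39.3 to 896 ± 367 (1.42, adjusted p = 0.000139). Cebpb, a myeloid C/EBP factor, fell from 2985 ± 534 to 1087 ± 323 (-1.48, adjusted p = 1.51e-05), and Mef2a from 72.3 ± 23.3 to 44.2 ± 6.85 (-0.66, adjusted p = 0.00833). These 4 kept their signs under all 6 scalings, Nfe2l2 barely so with positive controls only (0.03).

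Among 19 rapidly induced cytokine, chemokine and enzyme genes of macrophages, 7 were called higher and 4 lower as deposited, beside 35.1% and 21.4% of the panel, with a median log2 fold change of -0.64. Here too the balance turned, to 7 higher and 10 lower with centring (panel 28.2% and 39.5%). It was 4 and 11 without Gusb (15.3% and 54.4%) and 3 and 10 with positive controls only (10.9% and 64.1%). Quantiles gave 7 and 6 (25.4% and 27.8%). Genes of this list differed in both directions. Ccl4 rose from 55.1 ± 5.82 to 344 ± 87.3 normalized counts (2.59, adjusted p = 2.61e-08) and Cxcl10 from 33.6 ± 15.6, with 1 monocyte sample at the background, to 175 ± 129 (2.24, adjusted p = 0.000109). The neutrophil-attracting chemokine genes Cxcl2 and Cxcl1 fell, from 3633 ± 1710 to 125 ± 45.3 (-4.81, adjusted p = 3.66e-08) and from 1956 ± 1358 to 75.8 ± 59.2 (-4.69, adjusted p = 2.91e-06). All 4 kept their signs under the 6 scalings.

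Of 8 stress genes beside Ddit3, 4 were called higher and 1 lower as deposited, beside 35.1% and 21.4% of the panel. Centring gave 3 higher and 1 lower (panel 28.2% and 39.5%), and quantiles 3 and 0 (25.4% and 27.8%). The balance turned to 1 higher and 3 lower without Gusb, beside 15.3% and 54.4% of the panel. With positive controls only it was 0 and 5, beside 10.9% and 64.1%. Keap1, the sensor that holds NRF2, rose from 105 ± 10.7 to 213 ± 18.7 normalized counts (1.01, adjusted p = 5.14e-06), turning only with positive controls alone (-0.37), and Nfe2l2 itself, also on this list, is given above. Nox1, a superoxide-making oxidase, was called lower (-0.68, adjusted p = 0.0246), but 5 of 6 samples of each group were at the background, where the listed value follows the negative controls.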

How the data were processed

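The mRNA of 6 monocyte and 6 Kupffer cell pools was measured with the nCounter Mouse Inflammation V2 panel. Each deposited signal is a reporter count of a gene in a sample that the authors normalized in nSolver by the geometric means of positive controls and housekeeping genes, and a gene under the highest of 8 negative controls is listed at the count of that control. Of the 6 housekeeping genes, Hprt and Tubb5 were not analysed here, and the scalings without Gapdh or Gusb left them out too. Within a sample, dividing the values over the background by 1 factor gave whole numbers to within 0.02, the counted molecules. Background values lack this factor, so no count model was used.

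Differences were tested on log2(value + 1) over 248 genes with limma 3.58.1 in R 4.3.3 (2 groups of 6, two-sided, no covariate), adjusted by Benjamini-Hochberg and called under 0.05. Fold changes are on that scale. Ratios were compared by exact permutation over 924 assignments of samples, and correlations over 720 pairings. The SD from counting alone was taken from the counted molecules. Other steps used scipy 1.17.1, numpy 2.4.6 and pandas 2.3.3 under Python 3.11.15, figures matplotlib 3.10.9, and the steps were tested on simulated data. Nothing in the labels says that pools are independent beyond their numbers, so p-values measure the spread between these samples, which may in part be technical.

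Members and lists were chosen with earlier results of these data known. The rule named the 5 genes, the up to 2 called genes of each list with the largest change in each direction, and the 3 genes most like each of the 5. The alternatives concerned the pseudocount (0.5 and 10), low values, scaling, a replicate block, the test and samples left out. Scaling without Gusb, scaling by positive controls only, and leaving out Kupffer cell samples 1 and 6 were added after seeing the data.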

Additional observations from a re-analysis of the deposited data

Results flagged for a closer look

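Among the 10 groups of 6 values (5 genes in 2 cell types), Dixon's criterion, which chance meets in about 1 in 20 groups, set 2 samples apart. Jun in monocyte sample 4 was 1755 normalized counts, with the other 5 samples at 786 to 963. Ddit3 in Kupffer cell sample 2 was 274 normalized counts, with the other 5 at 304 to 319.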

How the results depend on the processing

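Fos and Jun kept their direction and call under all 24 alternatives run, with log2 fold changes of 0.57 to 2.08 and 0.92 to 2.47. Of the 10 ratios, 9 kept their call under all 14 alternatives run for ratios. These were the pseudocount of 10, a test pairing same-numbered samples and leaving out each sample, with no scaling among them. Groups fully apart stay apart when a sample is left out, so this stability was largely given beforehand. Myc, not called as deposited, was called lower with low genes removed (those at the background in over 6 samples; -0.41, adjusted p = 0.0455), with centring (-0.60), quantiles (-0.51), without Gusb (-1.07) and with positive controls only (-1.80). Leaving out each sample gave -0.51 to -0.32. Max lost its call with centring (0.35), quantiles (0.10), without Kupffer cell samples 1 and 6 (0.32) and in the exact Mann-Whitney test (0.54, adjusted p = 0.0689), and it reversed without Gusb (-0.12) and with positive controls only (-0.85). Leaving out each sample gave 0.44 to 0.67. Ddit3 lost its call with quantiles (0.17) and reversed without Gusb (-0.059) and with positive controls only (-0.79). Max over Ddit3 turned to 0.079 without Kupffer cell sample 4, in a range of -0.14 to 0.079 without each sample. In monocytes, the relation of Fos with Jun turned to -0.029 with Spearman's rho and to -0.47 without sample 4 (-0.47 to 0.88 without each sample), and that of Jun with Myc to 0.37 and 0.51 (-0.38 to 0.51). The count of relations past the test in Kupffer cells, 1, was 0 with centring, with Spearman's rho and without each sample, where the range was 0 to 0. For a lone relation the last 2 were fixed beforehand. The smallest adjusted p is 0.0556 with Spearman's rho over 6 samples and 0.167 over 5 samples. The r of Fos with Jun stayed at 0.958 to 0.992 without each sample. The causes of the other changes were not tested.

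Panel calls ranged from 126 to 186 over the alternatives, around 140. The share of them that were higher was 62.1% as deposited, 41.7% with centring, 47.7% with quantiles, 21.97% without Gusb, 14.5% with positive controls only and 50% without monocyte sample 2. The deviations of same-numbered samples correlated at -0.23 to 0.40, over 0.1 in 3 of 6 pairs, and 2 of 6 monocyte samples were closest to their own number, which did not show that the numbers pair the samples. With a replicate block 132 genes were called, Myc was called (-0.41, adjusted p = 0.0322) and Max was not (0.54, adjusted p = 0.0552). Ddit3 and Max had the fewest counted molecules, at 115 to 494. The SD of Ddit3 was 1.48 times that of counting alone in monocytes and 0.73 times in Kupffer cells. That of Max was 2.83 and 3.90 times, so only the spread of Ddit3 was close to counting error.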
